A study of Rattus norvegicus with 12 samples.

Results

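Of the 9721 genes in an RNA-seq table of rat midbrain astrocytes, 87 were annotated to the making of cholesterol, other sterols or fatty acids. They were taken from the annotation column of the table, as the rows whose Gene Ontology process terms held "cholesterol biosynthetic process", "sterol biosynthetic process" or "fatty acid biosynthetic process". Ptgs2, Pdk4 and solute carriers were left out, which removed 3 rows (Ptgs2, Pdk4 and Slc45a3). The choice used no measured value. The sterol arm held 34 genes and the fatty acid arm 56, and 3 genes (Insig1, Prkaa1 and Erlin2) were in both. Terms for regulation count too, so the set holds transcription factors, kinases and transporters beside enzymes. Fdps, Fdft1, Fasn, Acly, Scd2, Srebf2 and Scap were not analysed here.

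The cells were primary astrocytes of the midbrain of newborn Sprague-Dawley rats, of wild-type genotype and grown in serum-containing medium. They were exposed to PT109B at 10 µM, a compound that the labels give by its code alone, for 1.5, 3 or 6 h, and the control group stands for 0 h. Each of the 4 groups had 3 libraries, and the control libraries were made from the same kind of cells with no PT109B. The study used this compound to convert astrocytes toward dopaminergic neurons, and each treated time is set against the untreated cells and against the time before it. Levels below are CPM, counts relative to the scaled library size, and allow a gene to be compared between libraries. Levels of different genes are compared only in FPKM, which also divides by transcript length. Changes are log2 fold changes ± SE, and a gene was called where edgeR's quasi-likelihood test gave a Benjamini-Hochberg adjusted p below 0.05 over the 9491 genes tested. Whether the 3 libraries of a group stem from 3 cultures is not in the labels, so the p-values speak of spread among libraries only, and that may be technical.

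Cells build cholesterol from acetyl-CoA through the mevalonate segment and then through squalene and a series of sterol intermediates. Fatty acids are built from the same precursor by way of malonyl-CoA and are then elongated and desaturated. The SREBP transcription factors raise genes of both routes when sterols in the endoplasmic reticulum are low, INSIG proteins hold them back when sterols are high, and in the brain astrocytes are a main source of cholesterol and of the lipoprotein that carries it.

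In each treated group 1 library differed from the other 2. Across the members, log2 CPM correlated at 0.997 between replicates 1 and 2 at 1.5 h, but at 0.904 and 0.908 between these and replicate 3. At 3 h the corresponding values were 0.995 for replicates 1 and 2 against 0.945 and 0.948 for replicate 3. At 6 h replicates 2 and 3 were at 0.997, and replicate 1 was at 0.952 and 0.956 with them. The control libraries were at 0.988 to 0.994. These coefficients are across 86 genes, which are not independent replicates. Deviations from the group mean over the members correlated at 0.763 between replicate 3 at 3 h and replicate 1 at 6 h, but at 0.306 and 0.105 between these and replicate 3 at 1.5 h. Total counts were 9368967 to 12498047 per library, of which the members took 1.23% to 2.10%.

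Markers of dividing and of other cells moved with these libraries. The mean log2 CPM of 10 mitosis markers was 6.29 to 6.72 in the controls, 6.22 to 6.44 at 1.5 h, and 5.94 in replicate 3 at 3 h and 5.96 in replicate 1 at 6 h. In the other libraries at 3 and 6 h it was 2.43 to 2.85. The 17 microglia markers summed to 3056 to 3758 CPM in the controls, and their lowest sum was 334 CPM, at 1.5 h. Their mean log2 CPM was 3.81 and 3.74 in replicates 1 and 2 at 1.5 h and 7.19 in replicate 3. None of the 17 was at 0 there: Csf1r was at 31.8 and 34.8 CPM against 319 to 410 in the controls, and P2ry12, low throughout, at 0.906 and 0.392. Of 12 astrocyte markers 10 were in the table and were expressed in all libraries, with Gfap at 1932, 1900 and 2708 CPM in the controls. In bulk RNA, fewer cells of a type and less RNA per cell cannot be told apart. Fibroblast and meningeal markers (7 genes) were highest in the libraries that were alike: they summed to 4476 to 6015 CPM in the controls, to 12581 and 12980 CPM in replicates 1 and 2 at 1.5 h, 12010 and 11797 at 3 h, and 9079 and 8683 in replicates 2 and 3 at 6 h. In the libraries unlike their groups they summed to 4608, 5220 and 4639 CPM. The 4 neuron markers were split likewise, at 344 to 409 CPM in the 6 alike libraries against 198, 218 and 204 CPM in the others and 182 to 227 CPM in the controls. The part of these markers in the results below was not tested.

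**Figure D1:**
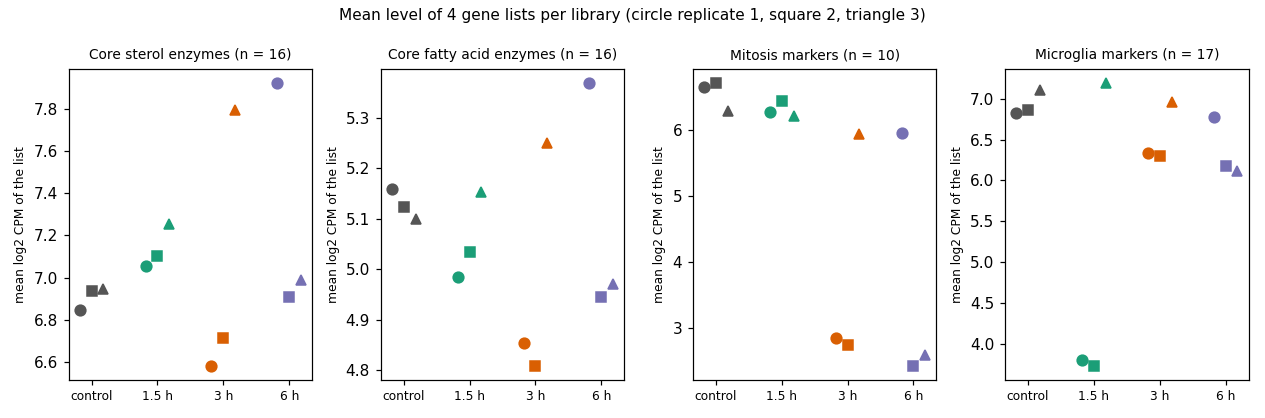
Mean log2 CPM per library (y axis) of the 16 core sterol enzymes, 16 core fatty acid enzymes, 10 mitosis markers and 17 microglia markers, by group (x axis, 3 libraries each). At 3 and 6 h the sterol enzymes were highest in the same 2 libraries (7.79 and 7.92) in which mitosis markers were nearest to control (5.94 and 5.96), and the microglia markers were lowest in replicates 1 and 2 at 1.5 h.

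Few members differed from control at 1.5 h. The sterol arm had 1 gene that rose and 1 that fell, Prkaa1, of 34 tested. The fatty acid arm had 1 call of 55 tested, the same fall of Prkaa1, the catalytic subunit of AMP-activated kinase, which belongs to both arms. Over both arms this was 2.33% of the 86 tested members, against 3.32% of all tested genes, of which 1.95% rose and 1.37% fell. The median log2 fold change was -0.03 in the sterol arm and 0.00096 in the fatty acid arm, and -0.01 over all genes. Without any multiple-test adjustment, 4 of 34 sterol and 12 of 55 fatty acid genes had a p below 0.05 (edgeR). So did 2009 of all 9491 tested genes, so these counts were not above the background.

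At 3 h the sterol arm still had only 2 calls, both rises, with Msmo1 among them. In the fatty acid arm 7 genes rose and 2 fell. Members called were 12.8% of those tested, against 21.4% of all tested genes, of which 13.5% rose and 7.94% fell, so the share of called members was below the background. Medians were -0.02 in the sterol arm, -0.06 in the fatty acid arm and -0.03 over all genes. When libraries were scaled by total counts in place of TMM, the median of all genes was -0.34, and the fatty acid arm had 2 genes that rose and 7 that fell. Of all genes 650 then rose and 1887 fell.

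At 6 h 4 sterol genes rose and 1 fell, and in the fatty acid arm 10 rose and 6 fell. This was 22.1% of members against 30.5% of all tested genes, of which 18.7% rose and 11.8% fell. The sterol median was 0.14 and that of the fatty acid arm 0.04, with -0.02 over all genes. Scaled by total counts, 6 fatty acid genes rose and 6 fell at this time, and the sterol arm again had 4 and 1, with a median of -0.04. The median of all genes was then -0.24, and 1141 of them rose and 1799 fell.

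**Figure D2:**
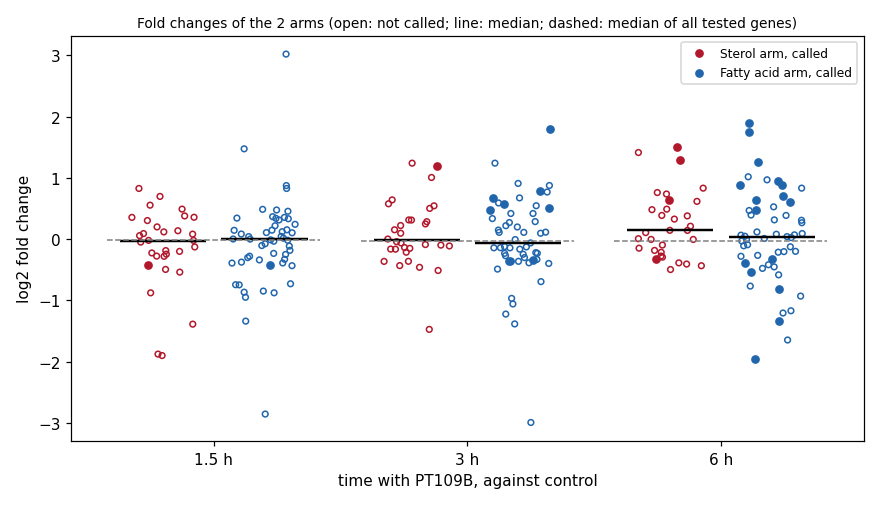
Log2 fold change against control (y axis) of tested members at 1.5, 3 and 6 h (x axis), sterol arm in red and fatty acid arm in blue, filled where called. The black lines mark the medians over all tested members of an arm and the dashed lines the median of all 9491 genes. The medians of both arms lay near that of all genes at each time.

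The small number of sterol calls went with a wide spread within the groups at 3 and 6 h. Of 16 core sterol enzymes, 12 were below the lowest control in both replicates 1 and 2 at 3 h, while 14 were above the highest control in replicate 3 and 0 below the lowest. At 6 h all 16 were above the highest control in replicate 1, but 5 and 6 in replicates 2 and 3, where 10 and 8 were below the lowest control. Among all tested genes, 35.9% were above the highest control in replicate 3 at 3 h and 39.4% in replicate 1 at 6 h, and 45.6% to 45.9% were below the lowest control in each of the other 4 libraries at 3 and 6 h. Against these shares, 75% of the core sterol enzymes were below at 3 h and 62.5% and 50% at 6 h. At 1.5 h 7, 9 and 12 of the 16 (43.8%, 56.2% and 75%) were above the highest control, against 40.6%, 40.5% and 30% of all genes, so that replicate 1 was near the background. The mean log2 CPM of the 16 was 6.85 to 6.95 in the controls, 6.58, 6.72 and 7.79 at 3 h, and 7.92, 6.91 and 6.99 at 6 h.

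Core fatty acid enzymes split in the same direction but over a smaller range. Of 16, 3 and 5 were above the highest control in replicates 1 and 2 at 3 h and 7 in replicate 3, with 10, 11 and 5 below the lowest. In replicate 1 at 6 h 10 were above and 5 below, and in replicates 2 and 3 the numbers were 5 and 3 above and 8 and 7 below. Their mean log2 CPM was 5.10 to 5.16 in the controls, 4.85, 4.81 and 5.25 at 3 h, and 5.37, 4.95 and 4.97 at 6 h. In all tested genes 41.2%, 40.8% and 35.9% were above and 45.8%, 45.9% and 36% below at 3 h, so that several of these counts were near or under the background, such as 7 of 16 above (43.8%) in replicate 3. At 6 h the all-gene shares were 39.4%, 42.3% and 42.5% above and 38%, 45.9% and 45.6% below. The difference between the arms in this spread was not tested.

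When the library unlike the other 2 was left out of each treated group, the remaining pairs were so alike that most genes passed the test: 59.2% of all genes at 1.5 h, 70.9% at 3 h and 75.1% at 6 h. Members called were 62.4%, 75.3% and 67.1%. In the sterol arm 8 genes rose and 14 fell at 1.5 h, 6 rose and 20 fell at 3 h, and 7 rose and 17 fell at 6 h, of 33 tested. In the fatty acid arm 14 rose and 20 fell, 15 rose and 24 fell, and 14 rose and 22 fell, of 55. All genes also leaned to falls in this fit, of 9523 tested. At 1.5 h 2734 rose and 2908 fell, at 3 h 2989 and 3767, and at 6 h 3169 and 3985. The sterol median at 3 h became -0.31 and that of the core sterol enzymes -0.56, against -0.13 over all genes. At 6 h the sterol median was -0.20 and that of all genes -0.15. The sterol median at 6 h thus turned sign without these libraries. It also did so under scaling by total counts, where the median of all genes fell as well, to -0.24.

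**Figure D3:**
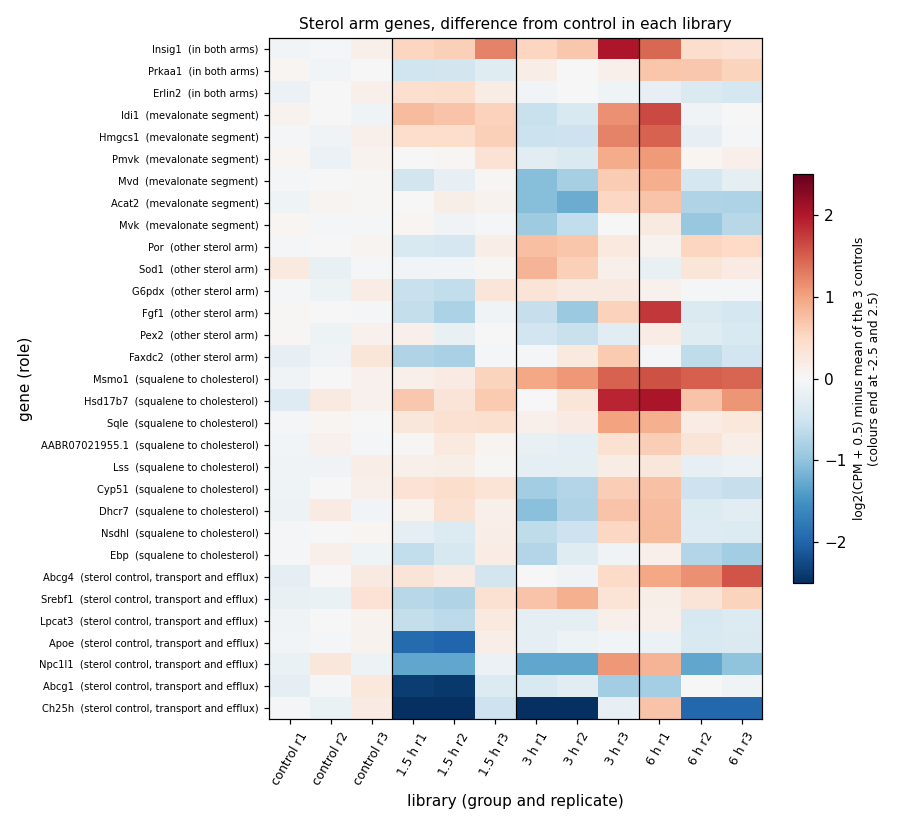
Members of the sterol arm (rows, with role) in each of 12 libraries (columns), coloured by log2 CPM minus the mean of the 3 controls, red above and blue below, with colours ending at 2.5. Msmo1 is red in every treated library, while Hmgcs1, Idi1, Cyp51 and most of their neighbours are red in replicate 3 at 3 h and replicate 1 at 6 h and blue or pale in the other libraries at 3 and 6 h.

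Msmo1, an oxidase that acts after Cyp51 in removing methyl groups from sterol intermediates, rose at 3 and 6 h. Its level was 399, 421 and 456 CPM in the controls and 467, 487 and 621 at 1.5 h. It then reached 827, 905 and 1189 CPM at 3 h and 1280, 1190 and 1169 at 6 h. All treated libraries were above all controls, by little at 1.5 h. The change at 1.5 h of 0.30 ± 0.17 was not called (adjusted p = 0.316, edgeR). At 3 h it was 1.19 ± 0.17 (adjusted p = 0.00106, edgeR) and at 6 h 1.51 ± 0.17 (adjusted p = 0.000231, edgeR), and both held under all alternatives run.

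Insig1, which retains the SREBP complex in the endoplasmic reticulum and is itself a known SREBP target, was higher in all treated libraries but did not pass the test. It was at 197, 199 and 226 CPM in the controls, 301, 314 and 488 at 1.5 h, 302, 330 and 837 at 3 h, and 558, 282 and 267 at 6 h. The groups did not overlap with control at any time, and 1 library in each group was far above the other 2. Log2 fold changes were 0.83 ± 0.41, 1.24 ± 0.41 and 0.83 ± 0.41, with adjusted p of 0.272, 0.0545 and 0.14 (edgeR).

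Promoters of 3 sterol genes are shown because their transcripts were above control at 1.5 h in all libraries and then parted: Msmo1 and Insig1 stayed above, while Hmgcs1 did not. They are RefSeq sequences of the rat build GRCr8, from 250 bases before to 50 after the annotated start, given in the direction of transcription. Capitals mark CCAAT and GGGCGG on either strand (as ATTGG and CCGCCC on the other), the letters of the CCAAT box and of the GC box bound by SP1, factors known to act beside SREBP. Hmgcs1 lies at chr2:53382054-53382353 (plus strand), Msmo1 at chr16:29746863-29747162 (plus strand) and Insig1 at chr4:8057720-8058019 (minus strand).
Hmgcs1: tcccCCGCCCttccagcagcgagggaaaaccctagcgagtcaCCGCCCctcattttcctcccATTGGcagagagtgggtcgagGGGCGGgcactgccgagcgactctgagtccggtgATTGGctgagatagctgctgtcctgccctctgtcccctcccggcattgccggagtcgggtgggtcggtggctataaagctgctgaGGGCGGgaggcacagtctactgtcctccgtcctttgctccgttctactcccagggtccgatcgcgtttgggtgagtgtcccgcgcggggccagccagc
Msmo1: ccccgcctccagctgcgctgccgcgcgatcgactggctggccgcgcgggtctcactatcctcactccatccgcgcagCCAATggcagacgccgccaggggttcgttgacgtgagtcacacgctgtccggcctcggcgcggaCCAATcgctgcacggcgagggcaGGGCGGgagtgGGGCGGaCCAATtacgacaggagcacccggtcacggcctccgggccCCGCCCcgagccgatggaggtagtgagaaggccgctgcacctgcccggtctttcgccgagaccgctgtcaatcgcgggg
Insig1: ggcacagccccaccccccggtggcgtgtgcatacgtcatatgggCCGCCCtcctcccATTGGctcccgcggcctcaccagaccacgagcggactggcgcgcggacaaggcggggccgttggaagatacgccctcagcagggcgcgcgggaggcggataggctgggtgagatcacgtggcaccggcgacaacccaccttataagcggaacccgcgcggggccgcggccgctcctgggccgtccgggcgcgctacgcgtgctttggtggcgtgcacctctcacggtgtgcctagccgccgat
CCAAT was found 2 times in the window of Hmgcs1, 3 times in that of Msmo1 and 1 time in that of Insig1, and GGGCGG 4, 3 and 1 times. Windows were at hand for 64 of the 87 members. CCAAT was in 66.7% of 24 sterol genes and 40.5% of 42 fatty acid genes, against 39.6% of all 27457 genes with a window. GGGCGG was in 79.2%, 66.7% and 36% of the same sets. A gene counted where any of its windows held the letters, and the sets had 31, 42 and 33469 windows, so more than 1 for some sterol genes. The 27457 genes were not limited to those with expression values here. TCACNCCAC, the core letters of a sterol response element, was in 0 of 24, 0 of 42 and 1.25% of all, on both strands, which says only that these letters are not in these windows. A match describes letters and shows no binding, and the motifs were not tested against the expression values.

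Several mevalonate enzymes showed the split between libraries. Hmgcs1, which makes HMG-CoA, was at 701, 666 and 774 CPM in the controls and 966, 964 and 1079 at 1.5 h. At 3 h its levels were 489, 498 and 1676 CPM, and at 6 h 1969, 620 and 695. All libraries at 1.5 h were above all controls, but at 3 h the lower pair was below the lowest control and replicate 3 above the highest, and at 6 h replicate 2 was below and replicate 1 above. No change was called (log2 fold changes 0.49 ± 0.52, 0.31 ± 0.52 and 0.62 ± 0.52). Without the 3 libraries at odds with their groups the changes at 3 and 6 h were -0.60 and -0.20.

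Idi1, the isomerase of isopentenyl diphosphate, was at 111, 102 and 98 CPM in the controls, 179, 171 and 155 at 1.5 h, 69.9, 79.2 and 230 at 3 h, and 325, 97.3 and 104 at 6 h. It too was above all controls at 1.5 h and on both sides of them at 3 and 6 h. Its uncalled changes at 3 and 6 h were 0.29 ± 0.51 and 0.76 ± 0.52, and without the libraries unlike their groups they were -0.54, which then passed the test, and -0.13, which did not. Acat2, which condenses acetyl-CoA, was at 192 to 216 CPM in the controls and 206, 228 and 220 at 1.5 h. It was then at 98.6, 86.7 and 295 CPM at 3 h and 336, 121 and 121 at 6 h, so that both groups lay on either side of the controls. The kinases Mvk and Pmvk and the decarboxylase Mvd had uncalled changes between -0.46 (Mvk at 3 h) and 0.49 (Pmvk at 6 h).

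**Figure D4:**
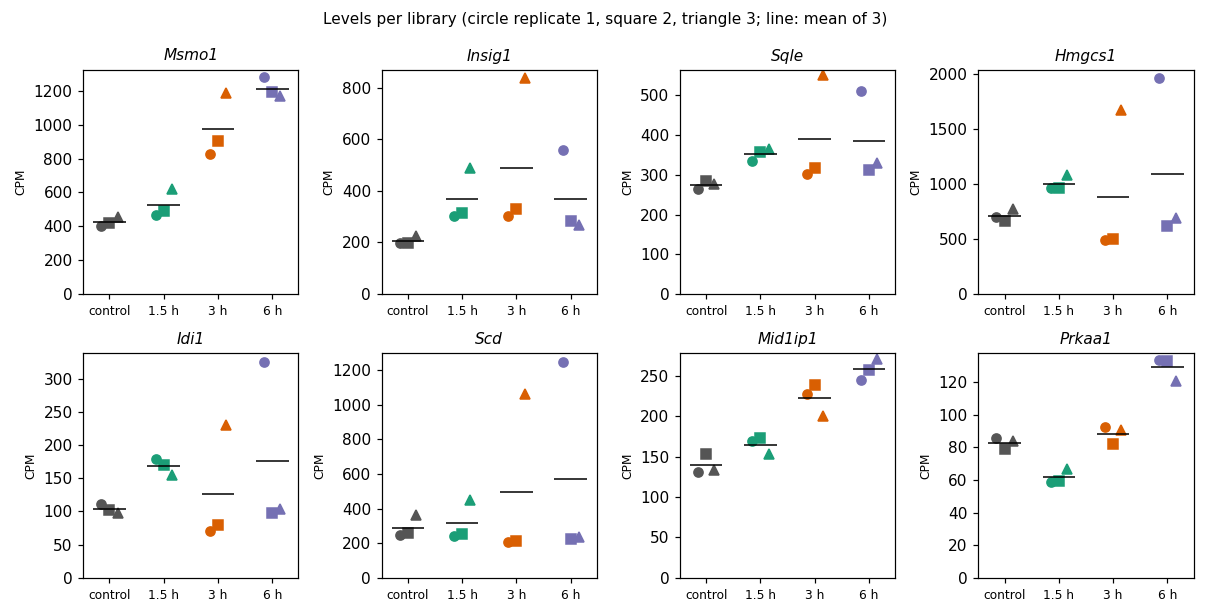
CPM per library (y axis, from 0) of 8 members by group (x axis), with lines at the mean of 3. The libraries of a group lay close together for Msmo1, Mid1ip1 and Prkaa1, while Insig1, Sqle, Hmgcs1, Idi1 and Scd each had 1 library at 3 h and 1 at 6 h far above the other 2.

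Of the 10 genes acting from squalene to cholesterol, Msmo1 alone was called at any time. Sqle, which oxidises squalene and is another control point, was at 265, 284 and 277 CPM in the controls, 336, 358 and 364 at 1.5 h, 302, 318 and 550 at 3 h, and 510, 313 and 330 at 6 h. It was above all controls in all 9 treated libraries, with uncalled changes of 0.36 ± 0.24, 0.50 ± 0.24 and 0.48 ± 0.24. Cyp51, the lanosterol demethylase, was at 509, 551 and 599 CPM in the controls, 713, 748 and 697 at 1.5 h, 301, 331 and 849 at 3 h, and 916, 383 and 369 at 6 h. Like Hmgcs1 it was high at 1.5 h and then on both sides of the controls. Hsd17b7, a sterol ketone reductase of low level, had the largest uncalled change, 1.41 ± 0.50 at 6 h (adjusted p = 0.0526, edgeR), with 56, 21.9 and 29 CPM against 10.4, 15.5 and 14.2 in the controls, so that the groups did not overlap. Dhcr7, a reductase of late sterol intermediates, and Lss, Nsdhl and Ebp had changes of -0.43 to 0.14 at 3 and 6 h. Dhcr7 at 6 h was at -0.39 without the library at odds, against 0.14 with it. The clone-named row AABR07021955.1, described as lamin B receptor, which is also a sterol reductase, had no call.

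Several transport and control genes of the sterol arm were low at 1.5 h in the same libraries as the microglia markers. Apoe, the main lipoprotein of brain, was at 1855, 1889 and 2064 CPM in the controls and 509, 487 and 2169 at 1.5 h. It was at 1664, 1776 and 1843 CPM at 3 h and 1744, 1494 and 1501 at 6 h. Replicates 1 and 2 at 1.5 h were the lowest libraries, and replicate 3 was above all controls. Ch25h, cholesterol 25-hydroxylase, was at 91.4, 82.9 and 107 CPM in the controls, 5.63, 6.66 and 64.5 at 1.5 h, 9.44, 10.9 and 80.7 at 3 h, and 152, 23.4 and 23.4 at 6 h. Abcg1, a cholesterol exporter, was at 68.8, 79.4 and 97.1 CPM in the controls and 15.3, 14.8 and 63.8 at 1.5 h. None of these changes was called: they were -0.88 ± 0.47 for Apoe, -1.88 ± 1.15 for Ch25h and -1.39 ± 0.51 for Abcg1. The microglia markers were low in the same 2 libraries, and their part was not tested.

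Abcg4, the neural relative of Abcg1, rose late. It was at 7.53, 8.78 and 10.5 CPM in the controls, 11.2, 10.4 and 6.34 at 1.5 h, 8.95, 8.36 and 12.5 at 3 h, and 17.8, 20.1 and 27.4 at 6 h. The libraries at 6 h were above all others. The change at 6 h was 1.28 ± 0.27 (adjusted p = 0.00576, edgeR) and held under all alternatives run. Srebf1, the SREBP gene that favours fatty acid synthesis, was named after its values were seen. It was at 172, 176 and 253 CPM in the controls, 122, 117 and 256 at 1.5 h, 323, 366 and 249 at 3 h, and 218, 248 and 290 at 6 h, with no call. Among the 7 other annotated genes of the sterol arm there were 0 calls by edgeR against control. Of these 7, 0 had an unadjusted p below 0.05 at 1.5 and 6 h and 3 at 3 h. Of all 9491 tested genes, 2009, 3647 and 4201 had one at 1.5, 3 and 6 h.

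The 2 further genes of both arms moved apart. Prkaa1 was at 85.5, 78.8 and 83.7 CPM in the controls and 58.7, 59.7 and 66.8 at 1.5 h. It was at 92.3, 82 and 90.8 CPM at 3 h and 134, 133 and 121 at 6 h. It was below all controls at 1.5 h, overlapped them at 3 h and was above them at 6 h, with changes of -0.42 ± 0.10 (adjusted p = 0.0447, edgeR), 0.10 ± 0.10 (adjusted p = 0.48, edgeR) and 0.65 ± 0.10 (adjusted p = 0.001, edgeR). The fall at 1.5 h was lost under 9 of 13 other settings, among them the other scalings, the replicate block and limma, and when any 1 control or replicate 1 or 2 at 1.5 h was left out. The rise at 6 h held throughout. Erlin2, an endoplasmic reticulum protein that takes part in the degradation of other proteins there, was at 106, 117 and 128 CPM in the controls, 156, 159 and 133 at 1.5 h, 111, 116 and 109 at 3 h, and 102, 91.1 and 86.3 at 6 h. It was above all controls at 1.5 h and below them at 6 h. The change was 0.36 ± 0.11 at 1.5 h (adjusted p = 0.119, edgeR) and -0.33 ± 0.11 at 6 h (adjusted p = 0.0481, edgeR).

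**Figure D5:**
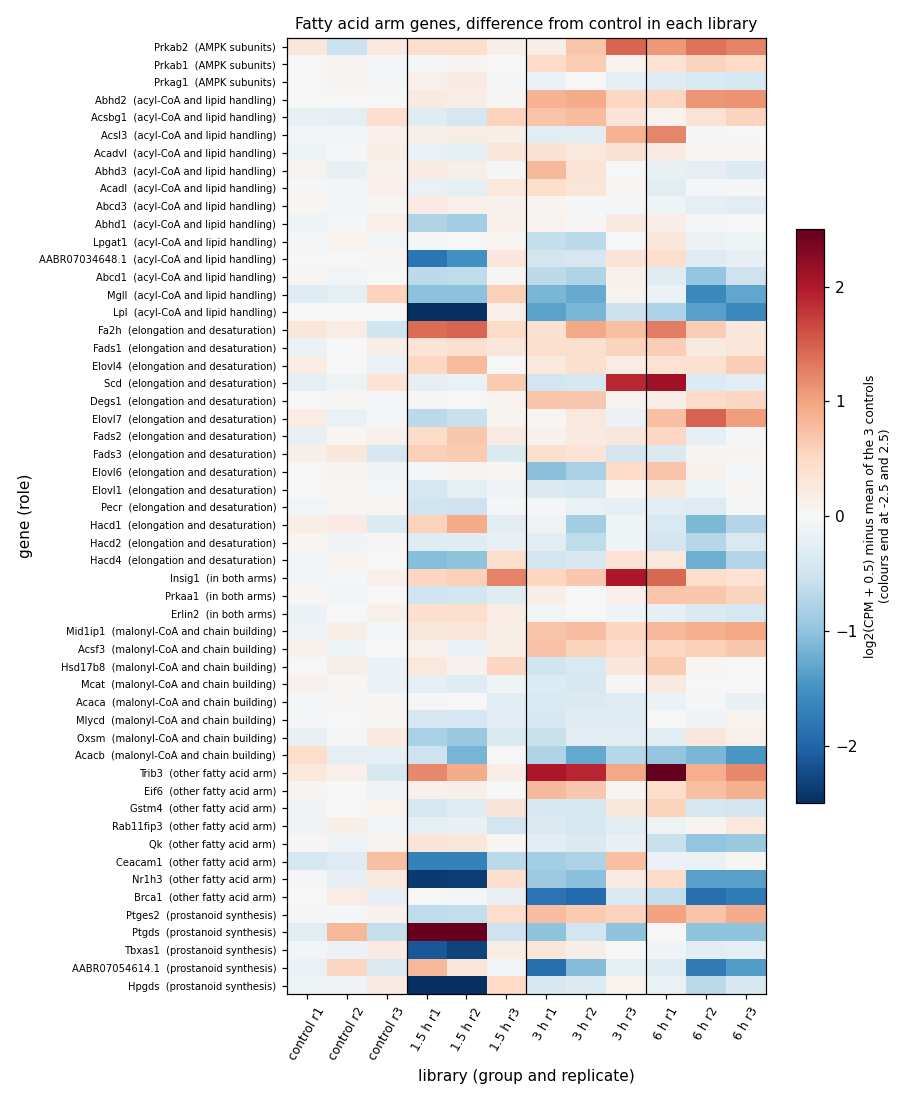
Members of the fatty acid arm (rows, with role) in each of 12 libraries (columns), coloured by log2 CPM minus the mean of the 3 controls, red above and blue below, with colours ending at 2.5. Abhd2 and Mid1ip1 are red in all libraries at 3 and 6 h, Scd is deep red in replicate 3 at 3 h and replicate 1 at 6 h, and Lpl, Nr1h3, Tbxas1 and Hpgds are blue in replicates 1 and 2 at 1.5 h.

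In the first steps of fatty acid synthesis the enzyme and its partner protein were called in opposite directions at 3 h, the call of the enzyme being the less firm. Acaca, the acetyl-CoA carboxylase that makes malonyl-CoA for synthesis, was at 167, 177 and 176 CPM in the controls, 167, 175 and 142 at 1.5 h, 134, 135 and 139 at 3 h, and 157, 168 and 152 at 6 h. All libraries at 3 h were below all controls, by -0.35 ± 0.10 (adjusted p = 0.0334, edgeR). That call was lost with the replicate block and kept in only 1 of 6 fits without 1 library. Acaca was not called at 1.5 or 6 h. Mid1ip1, known to promote the polymerisation and activity of that carboxylase, was at 131, 154 and 134 CPM in the controls, 169, 173 and 153 at 1.5 h, 228, 239 and 201 at 3 h, and 246, 258 and 271 at 6 h. It rose by 0.67 ± 0.11 at 3 h (adjusted p = 0.00244, edgeR) and 0.89 ± 0.11 at 6 h (adjusted p = 0.000392, edgeR), under all alternatives run. Groups did not overlap with control at 3 or 6 h.

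Mlycd, which breaks malonyl-CoA down, was at 59.5, 59.8 and 61.9 CPM in the controls, 45.1, 45.2 and 49.4 at 1.5 h, 44.4, 48.9 and 49.1 at 3 h, and 59.7, 56.5 and 64.1 at 6 h. It was below all controls at 1.5 and 3 h, with a call at 3 h alone (-0.35 ± 0.10, adjusted p = 0.03, edgeR). Its change at 1.5 h, -0.37 ± 0.10, had an adjusted p of 0.0663 (edgeR). Acsf3, a mitochondrial malonyl-CoA synthetase, was at 31.8, 27.4 and 29.2 CPM in the controls and 49.2, 43.2 and 39.9 at 3 h, and rose by 0.58 ± 0.13 at 3 h (adjusted p = 0.0121, edgeR) and 0.61 ± 0.13 at 6 h (adjusted p = 0.0061, edgeR). The rise at 6 h held under all alternatives run. Mcat, Oxsm and Hsd17b8, of mitochondrial fatty acid synthesis, were not called. Acacb, the carboxylase tied to control of fatty acid oxidation, was called lower at 6 h (-1.96 ± 0.62), but from levels of 1.21 to 2.23 CPM in the controls, and with limma on log2(FPKM + 1) the change was -0.16 and not called.

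Desaturases did not move as a group. Scd, the stearoyl-CoA desaturase, was at 246, 262 and 365 CPM in the controls, 244, 256 and 449 at 1.5 h, 207, 214 and 1065 at 3 h, and 1246, 227 and 234 at 6 h. The lower pair was below all controls at both 3 and 6 h, and the other library above all of them. Its uncalled changes of 0.77 ± 0.76 and 0.97 ± 0.77 became -0.53 and -0.42 without the libraries at odds with their groups. Fads1, a desaturase of polyunsaturated fatty acids, was at 389, 428 and 477 CPM in the controls, 546, 574 and 522 at 1.5 h, 584, 568 and 638 at 3 h, and 662, 500 and 531 at 6 h. It was above all controls in all 9 treated libraries. It was called at 3 h (0.47 ± 0.14, adjusted p = 0.0367, edgeR), a call lost when any 1 of the 6 libraries compared was left out, and not at 6 h (0.39 ± 0.14, adjusted p = 0.0557, edgeR). Degs1, which desaturates dihydroceramide, rose at 3 h (0.51 ± 0.16, adjusted p = 0.0474, edgeR), with 428, 423 and 282 CPM against 265, 272 and 257. This call was kept in only 5 of 13 other settings and 1 of 6 fits without 1 library, with changes down to 0.18. Fads2 and Fads3 were not called.

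Among the elongation enzymes there was 1 call in each direction at 6 h. Hacd2, a dehydratase of the elongation cycle, was at 20.7, 18.8 and 20.5 CPM in the controls, 15.8, 16.2 and 17.5 at 1.5 h, 16.4, 12.8 and 18.5 at 3 h, and 14.2, 12 and 15.2 at 6 h. It was the 1 member below all controls in all 9 treated libraries and fell by 0.53 ± 0.17 on the log2 scale at 6 h (adjusted p = 0.0351, edgeR). Elovl7 rose at 6 h (1.75 ± 0.58, adjusted p = 0.0436, edgeR), from 0.357 to 0.599 CPM to 1.11, 2.16 and 1.49 CPM, and with limma on log2(FPKM + 1) the change was 0.49. Elovl1, Elovl4, Elovl6, Hacd1 and Hacd4 were not called. Scd4 was listed at 0 in the 3 controls and was removed by the filter on low counts.

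Of 13 genes of acyl-CoA and lipid handling, Abhd2 alone was called. This serine hydrolase, known to cut monoacylglycerols, was at 94.1, 94.8 and 95.1 CPM in the controls, 110, 107 and 96.9 at 1.5 h, 174, 180 and 136 at 3 h, and 136, 204 and 206 at 6 h. All treated libraries were above all controls, and it rose by 0.79 ± 0.16 at 3 h (adjusted p = 0.00838, edgeR) and 0.94 ± 0.16 at 6 h (adjusted p = 0.0021, edgeR). Lpl, lipoprotein lipase, which microglia also express, was at 372, 369 and 365 CPM in the controls, 17.8, 17 and 403 at 1.5 h, 145, 168 and 253 at 3 h, and 216, 143 and 121 at 6 h. All libraries at 3 and 6 h were below all controls, yet no change was called (-1.34 ± 0.97, -0.97 ± 0.96 and -1.21 ± 0.96). Its low values at 1.5 h were in the 2 libraries with few microglia marker counts.

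The prostanoid enzymes in the set belong to the same annotation. Ptges2, a prostaglandin E synthase, was at 52, 52.1 and 58.2 CPM in the controls, 34.6, 35 and 73.4 at 1.5 h, 93, 85.3 and 80.4 at 3 h, and 109, 89.1 and 103 at 6 h. It was above all controls at 3 and 6 h and was called at 6 h (0.89 ± 0.25, adjusted p = 0.0219, edgeR). Tbxas1 and Hpgds, thromboxane and prostaglandin D synthases that microglia express, were, like Nr1h3, chosen after their values were seen. Tbxas1 was at 111, 106 and 135 CPM in the controls and 26.6, 23 and 133 at 1.5 h, and Hpgds at 20, 20.4 and 25.2 CPM and 1.91, 3.14 and 30.8. Both had their 2 low values in replicates 1 and 2 at 1.5 h, as did Nr1h3, the oxysterol receptor LXR alpha, at 3.82 and 3.92 CPM against 21.8, 19.2 and 26.3. None of these was called.

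The subunits of AMP-activated kinase, which phosphorylates and restrains Acaca, differed in direction at 6 h. Besides Prkaa1, Prkab1 rose (0.47 ± 0.14, adjusted p = 0.0258, edgeR) and Prkab2 rose (1.26 ± 0.35, adjusted p = 0.0217, edgeR). Prkag1 fell by 0.39 ± 0.10 on the log2 scale (adjusted p = 0.0171, edgeR). Prkab2 was at 6.33, 3.36 and 6.16 CPM in the controls and 11.4, 13.9 and 12.7 at 6 h. Prkag1 was at 70.6, 74.3 and 68.3 CPM and 56.5, 54.1 and 52.3. For all 4 subunits the 6 h libraries did not overlap the controls. Of the 5 subunits tested, the fifth, Prkag2, which is outside the annotated set, was not called (-0.36 ± 0.23).

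Of the remaining fatty acid members, those called are regulators or proteins with other main roles. Trib3, a stress-induced pseudokinase that binds acetyl-CoA carboxylase, was at 4.45, 4 and 2.64 CPM in the controls, 8.95, 7.29 and 4.13 at 1.5 h, 16.3, 15 and 7.6 at 3 h, and 25.3, 7.18 and 8.91 at 6 h. It rose by 1.80 ± 0.52 at 3 h (adjusted p = 0.0324, edgeR) and 1.90 ± 0.52 at 6 h (adjusted p = 0.019, edgeR), with no overlap with control at either time. The call at 3 h was lost in 5 of 13 other settings (1.05 with limma on FPKM) and in 5 of 6 fits without 1 library. At 6 h the change was 1.12 without replicate 1, which ended the call, and 1.03 without the 3 libraries unlike their groups, where the call held. It was also lost without control replicate 2 or 3. Qk, an RNA-binding protein of glia, was at 557, 503 and 581 CPM in the controls and 369, 275 and 286 at 6 h, and fell by 0.82 ± 0.14 on the log2 scale (adjusted p = 0.00224, edgeR). Eif6, a ribosome assembly factor, rose at 6 h (0.71 ± 0.18, adjusted p = 0.0155, edgeR). Brca1, a DNA repair protein, was at 29.6, 33.6 and 25.6 CPM in the controls and 19, 7.59 and 8.34 at 6 h (-1.34 ± 0.45, adjusted p = 0.0448, edgeR). Without the 3 libraries unlike their groups its change was -1.98. Its higher library at 6 h was the one in which mitosis markers were near control.

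Calls against control held unevenly under other settings. At 3 h, Msmo1, Abhd2 and Mid1ip1 were kept under all 13 other settings and all 6 fits that left out 1 library, and at 6 h the same 3 genes, Abcg4, Acsf3, Prkaa1 and Qk. The other calls named at 3 h were lost in at least 1 fit without 1 library, most often without a control or without replicate 1 or 2 at 3 h. Those of Degs1, Fads1, Trib3, Acsf3 and Acaca at 3 h were also lost in at least 1 of the 13 other settings. At 6 h the other calls followed were lost without a control or without 1 of the 3 libraries at 6 h, most often replicate 2 or 3. Replicate 1 at 6 h ended a call of Trib3 alone.

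Consistency over time was a property of few members. Msmo1, Insig1, Sqle, Fads1 and Abhd2 were among 6 members above all controls in all 9 treated libraries, which is 6.98% of tested members against 6.07% of all tested genes. In the sterol arm alone it was 4 of 34 (11.8%), and in the fatty acid arm 3 of 55 (5.45%), with Insig1 counted in both. Hacd2 was below all controls in all 9, 1.16% of members against 4.46% of all genes. At 1.5 h 9 sterol and 9 fatty acid members were above control without overlap (12.9% of all genes were), and 4 and 7 were below (15.1%). At 3 h 6 and 12 were above (23.4%) and 4 and 9 below (24.3%), and at 6 h 10 and 14 were above (28.2%) and 3 and 12 below (27.5%).

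Between time points, 11 members differed between 1.5 and 3 h, which is 12.8% of those tested against 20.3% of all tested genes, of which 12.1% rose and 8.23% fell. From 1.5 to 3 h Msmo1 rose by 0.89 ± 0.17 (adjusted p = 0.00922, edgeR) and Prkaa1 by 0.52 ± 0.10 (adjusted p = 0.00897, edgeR). Abhd2, Acsf3, Mid1ip1, Ptges2 and Por, the reductase that supplies electrons to Cyp51 and Sqle, rose too, and Erlin2, Qk and Ptgds fell. Ptgds overlapped between the groups: it was at 7.65 and 7.37 CPM in replicates 1 and 2 at 1.5 h and at 1.29 CPM or less in all other libraries. Without overlap between the groups, 11 members were higher at 3 h than at 1.5 h (17.7% of all genes were) and 7 lower (16.6%). When libraries were scaled by total counts, the split of 8 risen and 3 fallen became 4 and 6. All genes shifted likewise, from 1148 risen and 781 fallen to 563 and 1485. From 3 to 6 h 2 members rose and 0 fell, 2.33% against 4.05% of all tested genes, of which 2.33% rose and 1.72% fell: Abcg4 (1.13 ± 0.27, adjusted p = 0.0447, edgeR) and Prkaa1 (0.55 ± 0.10, adjusted p = 0.0162, edgeR). Msmo1 did not pass the test for that interval. Without overlap, 7 members were higher at 6 h than at 3 h (13.2% of all genes) and 10 lower (11%).

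Genes of neighbouring steps that lie outside the annotation are given for comparison. Of 13 tested genes of cholesterol uptake, transport and efflux that are not members, 1, 4 and 2 rose at 1.5, 3 and 6 h and 0 fell, where 1.95%, 13.5% and 18.7% of all tested genes rose. With lists this short, a count of 2 at 6 h is near that background. Among them were the lipoprotein receptor Lrp8 at 3 h (1.00 ± 0.13) and 6 h (1.22 ± 0.13), and Vldlr (1.31 ± 0.37) and Clu (1.16 ± 0.34) at 3 h. Of 7 genes of SREBP and LXR control, which share members with that list, 1, 2 and 2 rose, among them Mlx, a partner of the carbohydrate-sensing factor ChREBP (0.59 ± 0.14 at 3 h and 1.07 ± 0.14 at 6 h). Of 14 genes of fatty acid oxidation and storage, 0, 4 and 4 rose and 0, 0 and 1 fell, beside the same shares of all genes that rose and 11.8% that fell at 6 h. Lpin1, a phosphatidate phosphatase of triglyceride synthesis, rose by 1.87 ± 0.21 at 3 h and 1.19 ± 0.21 at 6 h, and Plin2, a lipid droplet coat protein, by 0.79 ± 0.22 at both times. Cpt1a, which admits fatty acids to mitochondria, fell by 0.66 ± 0.17 on the log2 scale at 6 h (adjusted p = 0.0166, edgeR), while its neural relative Cpt1c rose (0.92 ± 0.18 at 3 h).

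Per unit of transcript length, Apoe was the most abundant member in the controls, at 1163 ± 62.4 FPKM (SD, n = 3). G6pdx, which supplies NADPH, followed at 432 ± 49.4 FPKM and Msmo1 at 187 ± 12 FPKM. Hmgcs1 (161 ± 11.7 FPKM), Qk (147 ± 10.8 FPKM), Acsbg1 (141 ± 36.4 FPKM) and Cyp51 (134 ± 10.5 FPKM) came next, and neighbours among these 4 differed by less than the sum of their SDs. Scd was lower, at 46.6 ± 10.2 FPKM, beside Insig1 at 58.5 ± 4.35 FPKM. At 3 h Msmo1 was at 358 ± 111 FPKM and Hmgcs1 at 173 ± 151 FPKM. Below 1 FPKM in the controls were 7 members: Scd4, Npc1l1, Acacb, Elovl7, Fa2h, Ceacam1 and Ptgds.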

How the data were processed

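RNA was sequenced from 12 libraries in 4 labelled groups of 3. Per the file headers, the authors deposited for each gene an FPKM value and an estimated count, that is an expected count, in every library. The submitters' processing notes name StringTie 2.2.1, and which aligner and genome build were used is not given in the sources used here. Some 9.49% of counts had decimals (in 1343 genes, 14 of them members), so all were rounded, although whole counts had been assumed when tests were chosen. The table holds part of a rat genome's genes, by a rule not known, so adjusted p-values refer to this set.

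The count test was edgeR 4.0.16 in R 4.3.3 (filterByExpr, which removed 230 genes; TMM; robust quasi-likelihood fit to all 12 libraries with group as the only term). A prior count of 0.125 entered the log2 fold changes, and the test was checked on simulated counts. The deposited FPKM values served for levels between genes, limma 3.58.1 on log2(FPKM + 1) or log2(FPKM + 0.1), and a depth estimate. Other alternatives were RLE and library size scaling, 2 other filters, the replicate block, DESeq2 1.42.0, fits of 2 groups and left-out libraries. Counting may split near-identical or overlapping genes, which was not checked.

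The members and lists were chosen with earlier results of these data known. Named are the core sterol and fatty acid enzymes, up to 10 called members by size of change per comparison and arm, up to 3 uncalled members with a mean CPM of at least 2, and up to 4 called and 2 uncalled genes of other lists. Others are said to be chosen after their values were seen, or are counted as called between times. Promoters are RefSeq windows of build GRCr8, matched by symbol, and used with no other coordinates. Some single-gene results are not reported here, and their points and rows are not drawn in the figures.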

Additional observations from a re-analysis of the deposited data

Results flagged for a closer look

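The change with PT109B differed between time points by the test of the difference itself (edgeR, adjusted over all genes) for the members below. Between 1.5 and 3 h the log2 difference was 0.89 for Msmo1, 0.76 for Por, 0.86 for Ptges2, 0.64 for Abhd2, 0.54 for Acsf3, 0.52 for Prkaa1 and 0.43 for Mid1ip1. In the other direction it was -0.42 for Erlin2, -0.49 for Qk and -6.01 for Ptgds, whose groups overlapped. Between 3 and 6 h it was 1.13 for Abcg4 and 0.55 for Prkaa1, which thus differed at both steps. With only the 2 groups in the fit, 0 members were called for either step. Few of all genes were called in these fits either, 76 of 9240 between 1.5 and 3 h and 7 of 9151 between 3 and 6 h.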

How the results depend on the processing

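Counts of called members against control were 2 (sterol) and 1 (fatty acid) at 1.5 h, 2 and 9 at 3 h, and 5 and 16 at 6 h. They depended most on single libraries. Without the 3 libraries unlike their groups they were 22 and 34, 26 and 39, and 24 and 36, and 62 and 41 members were called between 1.5 and 3 h and between 3 and 6 h, in place of 11 and 2. In that fit 59.2%, 70.9% and 75.1% of all genes were called against control. Between times it was 69.9% and 34.1% of all genes, beside 72.9% and 48.2% of members. Leaving out 1 library at a time gave 0 to 9 sterol and 0 to 16 fatty acid calls at 1.5 h, 2 to 7 and 2 to 20 at 3 h, and 4 to 8 and 6 to 17 at 6 h. It gave 2 to 33 calls between 1.5 and 3 h and 0 to 8 between 3 and 6 h. The highest counts came without replicate 3 at 1.5 h (9, 16 and 33), replicate 3 at 3 h (7, 20 and 8) and replicate 1 at 6 h (8 and 17). Calls over all genes rose in the same fits, to 2871 of 9561, 3697 of 9551 and 3868 of 9552 against control. With all libraries they were 315, 2035 and 2891 of 9491. Without replicate 3 at 1.5 h, 4051 genes differed between 1.5 and 3 h, and without replicate 3 at 3 h, 788 between 3 and 6 h.

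At 1.5 h the sterol count was 1 and the fatty acid count 0 under RLE, library size and depth scaling, no filter, the replicate block and the 3 limma fits. Over all genes these fits called 201 to 389 at 1.5 h, against 315 in the main fit. With only the 2 groups compared, the fatty acid count at 1.5 h was 0, and 0 members were called for either step between times. Of all genes, 240 of 9324 were then called at 1.5 h, and 76 of 9240 and 7 of 9151 between times. DESeq2 called 4 fatty acid members at 1.5 h, 5 sterol and 14 fatty acid members at 3 h, and 18 and 5 members between times. Calls over all genes rose with DESeq2 too, to 788 of 9278 at 1.5 h and 2762 of 9467 at 3 h. Between times DESeq2 called 2769 of 9467 and 838 of 9090 genes. Without the 3 libraries the sign turned at 3 h for Scd (-0.53), Hmgcs1 (-0.60), Idi1 (-0.54) and Pmvk (-0.38), and at 6 h for Cyp51 (-0.64), Mvd (-0.42), Scd (-0.42), Hmgcs1 (-0.20), Dhcr7 (-0.39) and Nsdhl (-0.42). The cause was not tested. Of the other single-gene results under alternatives, 2472 kept direction and side of the threshold, 122 lost the call and 126 gained one. A further 164, called in neither fit, turned sign.

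The labels do not tie libraries of the same number, and deviations of same-numbered libraries correlated at -0.66 to 0.60. In groups of 3, the library unlike the other 2 weighs heavily on these values. They therefore cannot decide whether the numbers pair libraries, which is not known. With the replicate block the sterol counts were 1, 2 and 4 and the fatty acid counts 0, 5 and 13 at 1.5, 3 and 6 h, with 10 and 1 calls between times. Calls over all 9491 genes fell as well, to 201, 1608 and 2605 against control and 1243 and 159 between times. In the main fit these were 315, 2035 and 2891, and 1929 and 384.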
